A study of Mus musculus with 15 samples.

Results

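The genes described here are 60 neighbours of *Esr1* on mouse chromosome 10, chosen by position: they lie within about 20 Mb of the gene on GRCm38, and *Esr1* itself was left out. The list does not hold every gene of that window, and it was made with earlier results of these data known. They are 60 of the 55573 genes in the count table, and 58 of them were among the 17655 genes with enough reads to test. Of the 60 genes, 8 lie before *Esr1* and 52 after it, 59 are protein coding, and 1, *B430219N15Rik*, is an antisense RNA gene. The nearest is *Syne1*, 0.0153 Mb away, and 58 are within 20 Mb, while *Akap7* and *Epb41l2* lie just beyond. RNA from whole liver of 15 mice, each 8 weeks old, was sequenced after ribosomal RNA depletion. The groups were 3 wild-type females (FWT), 5 ESR1KO females (FKO), 3 wild-type males (MWT) and 4 ESR1KO males (MKO). The strain was B6N(Cg)-Esr1tm4.2Ksk/J, in which exon 3 of *Esr1* is deleted in every tissue, and heterozygous parents gave both ESR1KO mice and WT littermates. Because the deletion is not limited to liver, ESR1KO mice also differ from WT mice in their gonads and sex hormones.

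*Esr1* encodes estrogen receptor alpha, a nuclear receptor that binds estrogen and then binds DNA at estrogen response elements, and in liver it takes part in sex-biased and metabolic gene expression. A targeted allele is inherited together with the DNA around it until recombination separates them. In a strain made by crossing a targeted allele into another background, genes near the target can therefore carry alleles of the donor, and these may differ in expression whether or not the deleted protein acts on them. ESR1KO mice carry the DNA next to the deleted exon on both copies, and their WT littermates carry the DNA next to the intact exon. The donor strain and the number of backcrosses are not given in the sources used here. Whether the flanking DNA differs in sequence between ESR1KO and WT mice, and over what length, was not tested. Linked alleles and loss of ESR1 cannot be told apart for a single neighbour in this design, so the question was how many neighbours differed by genotype, in which sex, and how far from *Esr1* they lay.

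*Esr1* itself had 81.9 ± 6.79 CPM (counts per 1000000 counts of the library, scaled by TMM, SD, n = 3) in FWT, 13.1 ± 4.01 (SD, n = 5) in FKO, 36.1 ± 14.1 (SD, n = 3) in MWT and 11.8 ± 3.35 (SD, n = 4) in MKO, and every ESR1KO mouse was below every WT mouse. Libraries held between 27799061 and 78624766 counts. The 5 hepatocyte markers together made up 99340 to 106794 CPM in FWT, 80724 to 104721 in FKO, 73241 to 75258 in MWT and 85517 to 94271 in MKO, so that MWT mice were below all others, and none of the 5 was called for genotype. Mitochondrial genes took between 4.33% and 7.40% of counts in 13 mice, but 11.2% in FKO replicate 1 and 1.97% in FKO replicate 4. The summed level of 5 cholangiocyte markers ranged from 32.4 to 32.9 CPM in FWT, from 43.7 to 51.4 in FKO, from 34.0 to 55.6 in MWT and from 41.3 to 59.3 in MKO, and *Krt19*, *Epcam* and *Spp1* each passed the test in at least 1 genotype contrast. None of the markers of the 6 other cell types, hepatocytes included, did. Fewer cells of a type and less RNA per cell cannot be told apart in whole liver, and the part of hepatocyte and cholangiocyte content and of mitochondrial share in the results below was not tested.

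Few neighbours of *Esr1* differed by genotype. Genes were called at an adjusted p under 0.05 by edgeR's quasi-likelihood test across all genes. In females, 2 of the 58 tested neighbours rose in ESR1KO, *Pex3* and *Enpp3*, where 3.14% of all genes tested were called higher, and 3 fell, *B430219N15Rik*, *Hivep2* and *Enpp1*, where 2.57% of all genes were called lower. In males, 2 rose, *Vnn3* and *Vnn1*, against 0.833% of all genes, and 2 fell, *B430219N15Rik* and *Moxd1*, against 0.583% of all genes. For the mean of the genotype effects in the sexes, *Mthfd1l* and *Pex3* rose, against a background of 2.63%, and *B430219N15Rik* and *Enpp1* fell, against 1.5%. In all, 9 neighbours were called in at least 1 of these 3 comparisons. As shares, 8.62% of the tested neighbours were called in females and 6.90% in males, and 5.71% and 1.42% of all genes. Within 20 Mb lay 48 other tested genes that are not on the list, of which 1 was called in females and 0 in males. The shares are therefore those of the list and not of the whole window. These counts are small, and leaving out 1 mouse moved the number that rose in females between 0 (without FWT replicate 3) and 3, and the number that rose in males between 0 (without MKO replicate 1 or 3, or any 1 MWT mouse) and 3. Without FKO replicates 1 and 4, 1 neighbour rose and 2 fell in females.

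The remaining neighbours had small estimates. The median log2 fold change of the tested neighbours was -0.06 in females and 0.0048 in males, and the size of the change was under 0.5 on the log2 scale for 52 of 58 in each sex. The median size was 0.146 in females and 0.114 in males, and 0.206 and 0.152 over all genes tested. The estimate had the same sign in both sexes for 29 of the 58 neighbours (50%), and for 53.1% of all genes. One neighbour, *B430219N15Rik*, was called in both sexes in the same direction, as were 0.232% of all genes. WT and ESR1KO mice did not overlap in either sex, with the same direction in both, for *B430219N15Rik* and *Pex3*, and for 1.85% of all genes. Counts were also simulated with a genotype effect in both sexes. In the female contrast, the test recovered 28.8% of genes changed 1.5-fold, 64.2% of those changed 2-fold and 97.0% of those changed 4-fold. In the male contrast it recovered 25.8%, 65.7% and 97.0%. For the mean of both sexes it recovered 53.0%, 80.6% and 100%. Within 1 sex, most simulated 1.5-fold changes were thus missed, as were some 2-fold changes. The changed genes were drawn from all tested genes, with 66 or 67 at each size. They do not give the limit for the neighbours, of which *Pex3* was called in females at 1.24-fold.

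Among the 60, the called neighbours lay at several distances, with none between *Hivep2* (8.96 Mb) and *Vnn3* (18.8 Mb). Within 1 Mb of *Esr1*, none of the 7 tested neighbours was called in either sex, and 1 was called for the mean of both sexes. Between 1 and 5 Mb, 1 of 10 was called in females and 1 in males, and this was *B430219N15Rik* in both. Between 5 and 10 Mb, 2 of 15 were called in females and none in males. Between 10 and 20 Mb, 2 of 24 were called in females and 3 in males. The 2 members beyond 20 Mb were not called. The median size of the neighbours' changes in these 4 distance classes, from near to far, was 0.124, 0.139, 0.153 and 0.151 in females and 0.210, 0.11, 0.0891 and 0.111 in males, on the log2 scale. From near to far, the 4 classes hold 11, 22, 21 and 50 tested genes, on the list or not. Of these, 0, 1, 2 and 3 were called in females and 0, 1, 0 and 3 in males. Among all tested genes of chromosome 10 beyond 20 Mb from *Esr1*, 6.4% of 750 were called in females and 2.13% in males. The window also held 48 tested genes that are not among the 60. Of these, *Rps12*, 18.8 Mb from *Esr1*, was called in females (log2 fold change 0.45 ± 0.11 SE, edgeR adjusted p = 0.0240). *Raet1d*, at 17.4 Mb, was called for the mean of both sexes (1.32 ± 0.28 SE, edgeR adjusted p = 0.0150).

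**Figure D1:**
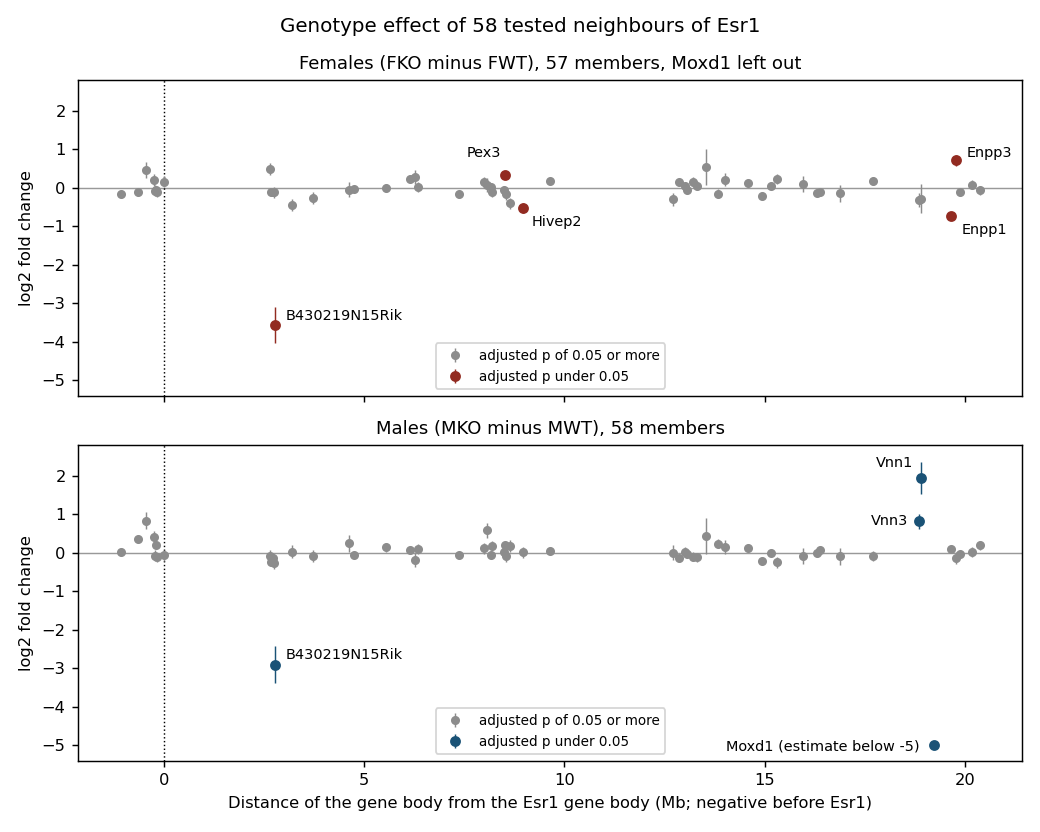
Log2 fold change between ESR1KO and WT mice of each tested neighbour (points, with bars of 1 SE) against its distance from *Esr1* in Mb, in females (upper) and males (lower), with genes called at an adjusted p under 0.05 in colour and named. *B430219N15Rik* at 2.77 Mb is low in both sexes, and it is the one gene called in both panels. *Moxd1* is left out of the female panel, where it had 4 counts in all, and is drawn at the lower limit of the male panel.

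*B430219N15Rik* was the one neighbour that fell in both sexes. The gene spans chr10:7780185-7781357 on the plus strand of GRCm38, 2.77 Mb after *Esr1*, and lies wholly inside *Ginm1* (chr10:7767947-7792824), a membrane protein gene on the opposite strand. Its first 300 bases (chr10:7780185-7780484, plus strand, from a GENCODE transcript) are shown to identify the annotated RNA, and they open with a run of CA repeats. Reads were counted per gene, so which transcript of the gene changed was not tested.

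B430219N15Rik, first 300 bases: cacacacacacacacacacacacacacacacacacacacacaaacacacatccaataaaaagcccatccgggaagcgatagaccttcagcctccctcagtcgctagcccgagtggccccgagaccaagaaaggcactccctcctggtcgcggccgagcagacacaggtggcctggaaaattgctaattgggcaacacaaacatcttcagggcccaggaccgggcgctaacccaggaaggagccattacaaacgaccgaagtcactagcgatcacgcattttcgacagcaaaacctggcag

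Further along, 114 bases of the 1105-base transcript (chr10:7780761-7780874, plus strand) lie opposite the coding part of a *Ginm1* exon. They are shown because genes are annotated on both strands there, and the capitals mark the complement of the *Ginm1* start codon.

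B430219N15Rik, opposite Ginm1 coding bases: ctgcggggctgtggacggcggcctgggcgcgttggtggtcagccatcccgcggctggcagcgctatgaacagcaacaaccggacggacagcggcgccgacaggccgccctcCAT

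FWT mice had 2.58, 1.71 and 7.88 CPM of *B430219N15Rik*, and FKO mice had 0.296, 0.276, 0.547, 0.393 and 0.211. MWT mice had 4.30, 1.71 and 5.6 CPM, and MKO mice had 0.398, 0.536, 0.610 and 0.492. Every ESR1KO mouse was below every WT mouse of its sex, and the spread among WT mice was wide, with FWT replicate 3 the highest. The level was 11.9-fold lower in FKO than in FWT (log2 fold change -3.58 ± 0.47 SE, edgeR adjusted p = 0.000168) and 7.5-fold lower in MKO than in MWT (-2.91 ± 0.48 SE, edgeR adjusted p = 0.00450). An exact two-sided permutation test over mice gave p = 0.0357 in females and 0.0571 in males, the smallest that 5 against 3 and 4 against 3 mice allow. The effects in the sexes differed by -0.67 (95% interval -2.01 to 0.67), which did not pass the test (edgeR adjusted p = 0.679). Without FWT replicate 3 the female change was -2.67, and the gene was called in both sexes in every fit that left out 1 mouse.

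*Ginm1*, the gene on the other strand, had 32.3, 30.7 and 40.2 CPM in FWT, 38.9, 34.0, 27.8, 31.5 and 26.4 in FKO, 44.7, 31.4 and 40.0 in MWT, and 29.6, 37.5, 31 and 29.6 in MKO. These ranges overlapped in both sexes, and the changes of -0.12 ± 0.14 (SE) in females and -0.28 ± 0.15 (SE) in males did not pass the test (edgeR adjusted p = 0.665 and 0.514). The antisense RNA covers 157 bases of a *Ginm1* exon, 14.2% of its own length, and the rest overlaps no annotated *Ginm1* exon. Whether reads were counted by strand is not given in the sources used here, and without strand, reads of *B430219N15Rik* and *Ginm1* over the shared bases cannot be told apart.

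**Figure D2:**
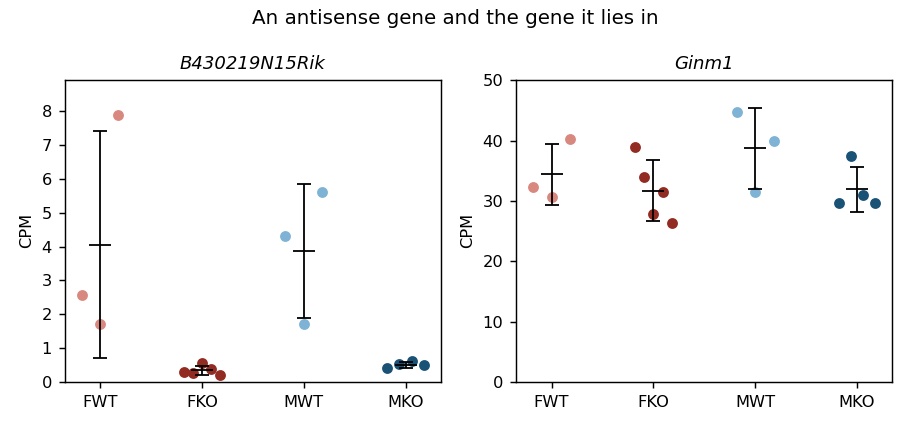
CPM of *B430219N15Rik* (left) and *Ginm1* (right) in each mouse (points) with the group mean and SD (bars). The ESR1KO mice of both sexes lie between 0.211 and 0.610 CPM for *B430219N15Rik*, below all WT mice, while the *Ginm1* levels of the groups overlap.

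The 8 neighbours nearest to *Esr1* were *Syne1*, *Ccdc170*, *Armt1*, *Rmnd1*, *Zbtb2*, *Akap12*, *Mthfd1l* and *Plekhg1*, and 1 of them was called for genotype. *Mthfd1l*, a mitochondrial enzyme of one-carbon folate metabolism 0.445 Mb before *Esr1* (chr10:3973118-4167081), had 3.01, 4.06 and 3.32 CPM in FWT and 3.73, 3.34, 5.73, 6.06 and 4.81 in FKO. It had 2.42, 3.45 and 3.60 CPM in MWT and 5.24, 4.81, 5.28 and 7.14 in MKO. The male groups did not overlap and the female groups did. Averaged over the sexes, *Mthfd1l* was 1.56-fold higher in ESR1KO mice (log2 fold change 0.64 ± 0.15 SE, edgeR adjusted p = 0.0238). The changes in females (0.46 ± 0.21 SE, edgeR adjusted p = 0.207) and males (0.83 ± 0.22 SE, edgeR adjusted p = 0.0756) did not pass on their own, and the call was lost without FWT replicate 1 or 3 or MWT replicate 1 (edgeR adjusted p up to 0.0683).

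The others near *Esr1* kept closer to the WT level. *Akap12*, a scaffold that anchors protein kinase A, lay at 0.20 ± 0.15 (SE) on the log2 scale in females and 0.40 ± 0.16 in males. *Plekhg1* had 11.5, 11.3 and 10.6 CPM in MWT and 14.7, 13.9, 14.3 and 14.2 in MKO. These male groups did not overlap, yet the change of 0.36 ± 0.10 (SE) missed the threshold (edgeR adjusted p = 0.0948), and in females it was -0.11 ± 0.09. *Rmnd1*, needed for translation in mitochondria, likewise did not overlap in males, with 31.9, 30.7 and 30.8 CPM in MWT and 34.8, 36.2, 36.1 and 37.0 in MKO (log2 fold change 0.21 ± 0.09 SE, edgeR adjusted p = 0.345). Over all neighbours, the male groups did not overlap for 13 of 58 (22.4%) and the female groups for 8 (13.8%), and over all genes this held for 15.9% and 15.6%. *Zbtb2*, a zinc finger transcription factor, was at -0.08 ± 0.13 (SE) in females and -0.08 ± 0.14 in males, and *Armt1*, a protein methyltransferase, at -0.12 ± 0.12 in each sex. *Ccdc170*, 0.0494 Mb from *Esr1*, had 0 counts in FWT and between 4 and 6 counts in all in each of the other groups, and was not tested.

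*Syne1*, which encodes the nuclear envelope protein nesprin-1 and is the closest neighbour (chr10:5020917-5551482), had 113, 92.8 and 94.4 CPM in FWT and 102, 88.2, 120.4, 129.5 and 116 in FKO. It had 164, 127 and 159 CPM in MWT and 153, 128, 166 and 125 in MKO. FWT mice were below all MWT mice, and ESR1KO mice overlapped the WT mice of their sex. *Syne1* did not differ by genotype beyond the spread (0.15 ± 0.14 SE in females, -0.07 ± 0.15 in males), but was 1.5-fold lower in FWT than in MWT (log2 fold change -0.58 ± 0.16 SE, edgeR adjusted p = 0.0388). That call was lost without any 1 of FWT replicates 2 and 3, MWT replicates 1 and 3 and MKO replicate 1.

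Between 8 and 9 Mb from *Esr1*, *Pex3* rose and *Hivep2* fell in females. *Pex3*, which encodes a peroxisome assembly protein (chr10:13523842-13553142), had 29.0, 24.9 and 26.0 CPM in FWT and 34.0, 34.5, 32.7, 32.9 and 31.9 in FKO. It had 33.1, 30.6 and 29.5 CPM in MWT and 33.6, 35.3, 38.5 and 35 in MKO. ESR1KO mice were above the WT mice of their sex without overlap, by a narrow margin in males. The rise was 1.24-fold in females (log2 fold change 0.32 ± 0.08 SE, edgeR adjusted p = 0.0353) and 1.19-fold averaged over the sexes (0.26 ± 0.06 SE, edgeR adjusted p = 0.0226). In males it was 0.20 ± 0.09 (SE, edgeR adjusted p = 0.363). With 1 mouse left out the female change stayed between 0.27 and 0.38, but the call was lost without FKO replicate 2 or FWT replicate 2 or 3 (edgeR adjusted p up to 0.168) and without both FKO mice of extreme mitochondrial share (edgeR adjusted p = 0.0769), and the averaged call without any 1 of FWT replicates 2 and 3, MWT replicates 2 and 3 and MKO replicate 3. The female call was also lost when the female groups were fitted alone (edgeR adjusted p = 0.136), and both calls were lost without the filter on low counts. *Pex3* shares 249 bases with *Adat2* on the opposite strand.

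*Hivep2*, a zinc finger transcription factor gene (chr10:13966075-14151374), had 18, 25.7 and 27.6 CPM in FWT, 17.3, 13.9, 18.2, 14 and 18.9 in FKO, 19.7, 18.2 and 17.2 in MWT, and 17.6, 16.8, 17.9 and 21.2 in MKO. A pair of FWT mice stood above the rest, and FWT replicate 1 lay within the FKO range. It was 1.44-fold lower in FKO (log2 fold change -0.53 ± 0.14 SE, edgeR adjusted p = 0.0374) and at 0.01 ± 0.15 (SE) in males. The difference between the sexes did not pass (-0.53 ± 0.21 SE, edgeR adjusted p = 0.255). The female call was lost without any 1 of 6 mice, FKO replicates 2 and 4, FWT replicates 2 and 3, MKO replicate 1 and MWT replicate 2 (edgeR adjusted p up to 0.213), without both FKO replicates 1 and 4 (edgeR adjusted p = 0.112), and when the female groups were fitted alone (edgeR adjusted p = 0.126).

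**Figure D3:**
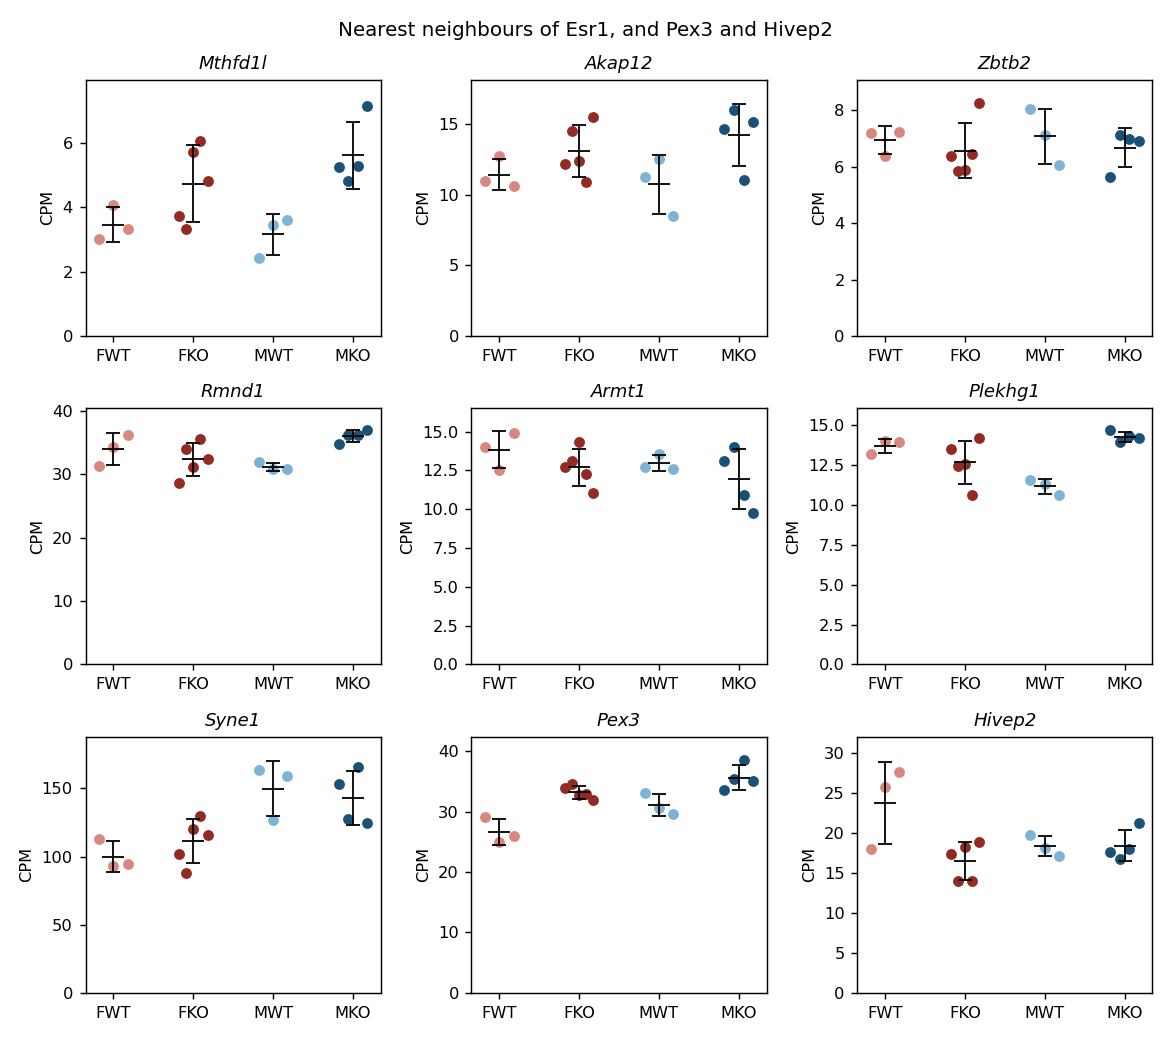
CPM in each mouse (points) with the group mean and SD (bars) for 7 of the neighbours nearest to *Esr1*, and for *Pex3* and *Hivep2*. *Mthfd1l* and *Pex3* have higher means in ESR1KO mice of both sexes, *Hivep2* has a lower mean in FKO than in FWT mice with overlapping ranges, and *Syne1* separates FWT from MWT mice.

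Most of the differences that depended on sex lay near the far end of the window, between 18.8 and 19.8 Mb from *Esr1*. Over all neighbours, 6 of 58 differed between WT females and WT males, where 4.87% of all genes did. Of these, 5 stood in the stretch from *Vnn3* to *Enpp3* (chr10:23851462-24842823, 0.991 Mb long), which holds 8 tested genes and was picked out after its values were seen. In ESR1KO mice none of the 58 neighbours differed between females and males after adjustment by edgeR, where 0.272% of all genes did. At an unadjusted p under 0.05 edgeR gave 8 of the 58 (13.8%), where 17.5% of all genes passed. DESeq2 gave 9 at an unadjusted p under 0.05 and called 1, *Cited2*. Between females and males, the genotype effect differed for *Vnn3*, *Enpp1* and *Enpp3*, where 1.94% of all genes did. *Moxd1* passed this test too, but with 0 counts in FWT and 4 in FKO its effect in females could not be measured. The WT mice serve in both the sex and the genotype comparisons, so these are not independent of each other.

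*Moxd1* (chr10:24223517-24302790), a relative of dopamine beta-hydroxylase, was found almost only in WT males. The 3 MWT mice had 71.5, 22.7 and 81.7 CPM, or 8979 counts together. MKO mice had 1 count in all, FWT mice 0, and FKO mice 0, 1, 0, 0 and 3 counts. No mouse of the other groups came near the MWT range. The ratio of MWT to MKO was 12627 with a 95% counting interval of 2266 to 498797, and MWT was at least 3007-fold higher than FWT, taking 3 counts over the FWT group as the limit (edgeR adjusted p = 1.61e-07 and 3.16e-08). The interval and the limit cover counting error only. *Moxd1* passed the filter on low counts through the MWT mice alone, and no genotype effect in females could be measured from 4 counts.

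*Vnn3* and *Vnn1* encode vanins, pantetheinases that release cysteamine and pantothenate (vitamin B5), and lie side by side. *Vnn3* (chr10:23851462-23869843) had 118, 94.9 and 96.0 CPM in FWT, 49.9, 72.0, 95.5, 104 and 90.6 in FKO, 53.4, 56.5 and 59.5 in MWT, and 99.1, 85.5, 107 and 105 in MKO. *Vnn1* (chr10:23894688-23905343) had 86.6, 29.1 and 44.3 CPM in FWT, 22.4, 48.1, 36.5, 58.8 and 52.5 in FKO, 13.2, 10.7 and 16.6 in MWT, and 42.3, 35.9, 96.1 and 32.7 in MKO. For both genes, the MWT mice were below all FWT and all MKO mice, as they were for the summed hepatocyte markers, and the FKO mice overlapped the FWT mice. *Vnn3* was 1.76-fold higher in MKO than in MWT (log2 fold change 0.81 ± 0.19 SE, edgeR adjusted p = 0.0397) and 1.82-fold higher in FWT than in MWT (0.86 ± 0.20 SE, edgeR adjusted p = 0.0156). *Vnn1* was 3.83-fold higher in MKO than in MWT (1.94 ± 0.43 SE, edgeR adjusted p = 0.0300) and 3.94-fold higher in FWT than in MWT (1.98 ± 0.44 SE, edgeR adjusted p = 0.0133).

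In females, the genotype changes of -0.32 ± 0.17 (SE) for *Vnn3* and -0.29 ± 0.38 for *Vnn1* did not pass the test. The effects in the sexes differed by -1.13 ± 0.25 (SE) for *Vnn3* (edgeR adjusted p = 0.0272), and by -2.23 ± 0.56 for *Vnn1*, just short of the threshold (edgeR adjusted p = 0.0510). FKO replicate 1, which had the highest mitochondrial share, had the lowest level of both genes among FKO mice. With 1 mouse left out, the changes in males ranged from 0.77 to 0.88 for *Vnn3* and from 1.45 to 2.12 for *Vnn1*, and the male groups did not overlap, but the adjusted p moved across the threshold: the call of *Vnn3* was lost without any 1 MWT mouse, MKO replicate 1, 3 or 4 or FWT replicate 2 or 3 (edgeR adjusted p up to 0.157) and with libraries scaled by total counts (edgeR adjusted p = 0.0635), and that of *Vnn1* without any 1 MWT mouse or MKO replicate 1 or 3 (edgeR adjusted p up to 0.140). The WT sex difference of both genes was lost without FWT replicate 1 or MWT replicate 1 or 2, and the *Vnn3* difference between the sexes' genotype effects without any 1 MWT mouse, MKO replicate 1, 3 or 4, FWT replicate 1 or FKO replicate 2 (edgeR adjusted p up to 0.0906). How reads that fit both vanins were counted is not given in the sources used here.

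*Enpp1* and *Enpp3* encode membrane enzymes that cleave extracellular nucleotides, and *Enpp1* is a main source of extracellular pyrophosphate. *Enpp1* (chr10:24637914-24712159) had 57.9, 51.0 and 51.2 CPM in FWT, 28.3, 31, 32.7, 30.6 and 37.9 in FKO, 28.6, 29.1 and 34.0 in MWT, and 32.6, 31.8, 31.8 and 35.4 in MKO. FWT mice stood alone above the other groups, which overlapped each other. The level was 1.66-fold lower in FKO than in FWT (log2 fold change -0.73 ± 0.10 SE, edgeR adjusted p = 0.000227) and 1.75-fold higher in FWT than in MWT (0.80 ± 0.11 SE, edgeR adjusted p = 0.000213). The change in males was 0.11 ± 0.11 (SE), and the sexes' effects differed by -0.84 ± 0.15 (SE, edgeR adjusted p = 0.00363). These calls were kept in every fit that left out 1 mouse. Between FKO and MKO mice the difference was -0.04 (95% interval -0.22 to 0.15). The averaged genotype effect of -0.31 ± 0.07 (SE, edgeR adjusted p = 0.0221) joined the fall in females with no called change in males, and was lost without FWT replicate 1 or MWT replicate 3.

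*Enpp3* (chr10:24772406-24842823) went the other way. It had 38.8, 36.4 and 34.0 CPM in FWT and 49.8, 55.4, 63.2, 54.9 and 74.0 in FKO, without overlap. MWT mice had 100.03, 75.9 and 82.6 CPM, and MKO mice 72.0, 64.4, 95.8 and 81.1. FWT mice were the lowest group, FKO mice lay between them and most males, and the male groups overlapped. The level was 1.64-fold higher in FKO than in FWT (log2 fold change 0.71 ± 0.15 SE, edgeR adjusted p = 0.00900) and 2.37-fold lower in FWT than in MWT (-1.24 ± 0.16 SE, edgeR adjusted p = 9.0e-05). In males the genotype change was -0.14 ± 0.15 (SE). The difference of the effects between the sexes, 0.85 ± 0.21 (SE, edgeR adjusted p = 0.0445), was lost without any 1 of 11 mice (edgeR adjusted p up to 0.150), and the female change only without FWT replicate 3 (edgeR adjusted p = 0.0642).

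**Figure D4:**
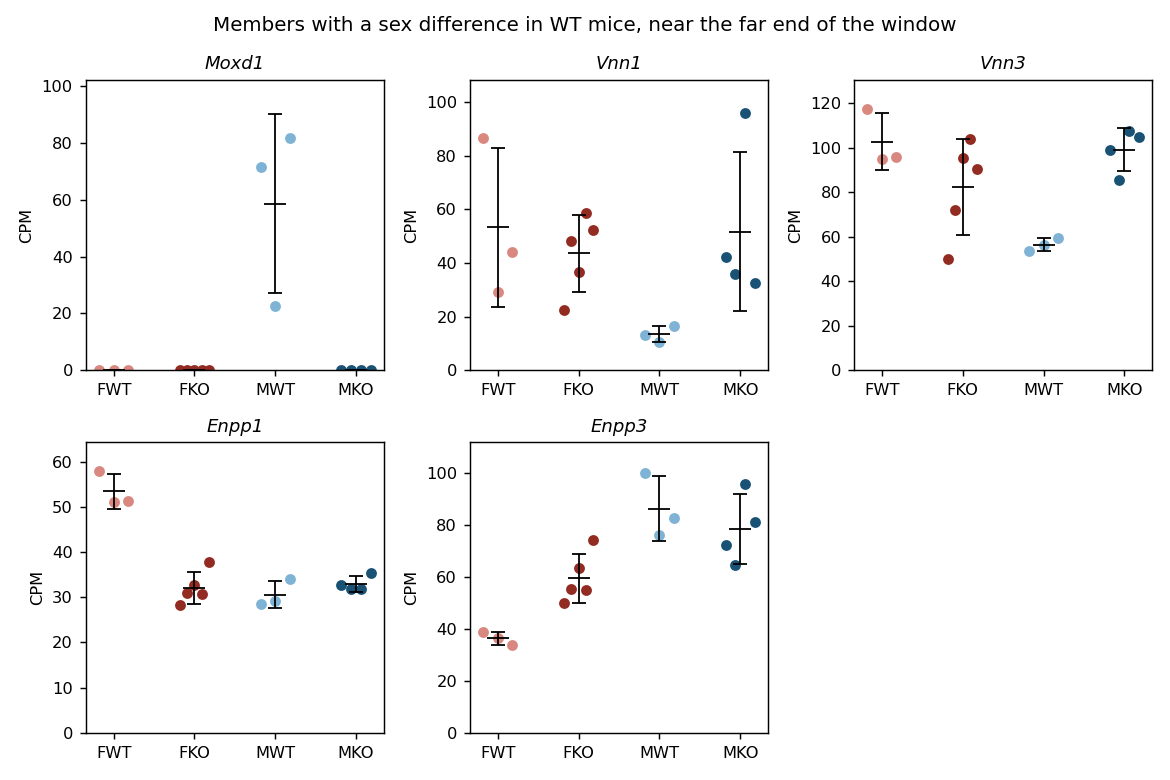
CPM in each mouse (points) with the group mean and SD (bars) of the 5 neighbours in the stretch from *Vnn3* to *Enpp3*. MWT mice stand apart for *Moxd1* (high) and for *Vnn1* and *Vnn3* (low), and FWT mice stand apart for *Enpp1* (high) and *Enpp3* (low).

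Since estrogen receptor alpha binds DNA, the promoters of the neighbours were searched for its element on both strands. RefSeq promoters on GRCm38.p6, of 250 bases before and 50 after a start, were matched for 51 of the 60 genes, 64 promoters in all. The half-site GGTCA, read on either strand, was in 31 of the 64 (48.4%) and in 40.5% of 32851 mouse promoters. The full element, GGTCANNNTGACC, was in none of the 64 and in 0.0700% of all. A match is a description of letters and not of binding. The promoters of 4 genes of the distal stretch are shown because these neighbours passed the test of the interaction between genotype and sex. *Vnn1* did not pass it, and no promoter was matched for it. Half-sites of either strand are in capitals: 1 each in *Vnn3* (chr10:23851212-23851511, plus strand), *Enpp1* (chr10:24712110-24712409, minus strand) and *Enpp3* (chr10:24836146-24836445, minus strand), and 0 in *Moxd1* (chr10:24223267-24223566, plus strand).

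Vnn3 promoter: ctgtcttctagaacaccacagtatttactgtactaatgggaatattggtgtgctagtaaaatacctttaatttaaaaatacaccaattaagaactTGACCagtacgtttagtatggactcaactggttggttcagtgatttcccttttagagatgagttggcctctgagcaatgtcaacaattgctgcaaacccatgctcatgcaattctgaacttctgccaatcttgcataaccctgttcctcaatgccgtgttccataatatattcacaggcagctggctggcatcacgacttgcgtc

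Moxd1 promoter: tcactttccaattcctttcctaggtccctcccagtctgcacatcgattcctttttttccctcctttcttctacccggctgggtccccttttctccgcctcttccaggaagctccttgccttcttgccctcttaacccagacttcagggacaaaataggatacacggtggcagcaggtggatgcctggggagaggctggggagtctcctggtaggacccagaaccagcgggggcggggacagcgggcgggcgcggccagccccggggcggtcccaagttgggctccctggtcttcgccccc

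Enpp1 promoter: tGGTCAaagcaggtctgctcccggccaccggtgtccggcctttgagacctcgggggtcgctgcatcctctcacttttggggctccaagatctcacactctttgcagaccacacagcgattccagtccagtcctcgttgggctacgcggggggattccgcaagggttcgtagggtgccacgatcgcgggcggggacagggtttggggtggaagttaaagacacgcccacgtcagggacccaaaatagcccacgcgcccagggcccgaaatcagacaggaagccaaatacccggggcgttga

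Enpp3 promoter: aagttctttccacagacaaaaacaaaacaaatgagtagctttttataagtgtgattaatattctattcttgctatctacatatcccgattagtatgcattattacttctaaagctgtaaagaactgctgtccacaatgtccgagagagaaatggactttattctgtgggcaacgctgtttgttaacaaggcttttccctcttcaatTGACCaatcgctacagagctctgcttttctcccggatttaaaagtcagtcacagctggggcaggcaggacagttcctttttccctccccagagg

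By function, the metabolic and extracellular enzymes and transporters have 12 genes, *Mthfd1l*, *Aldh8a1*, *Vnn1*, *Vnn3*, *Enpp1*, *Enpp3*, *Fuca2*, *Iyd*, *Ust*, *Moxd1*, *Aig1* and *Slc2a12*, of which 11 were tested. In females 1 rose and 1 fell, in males 2 rose and 1 fell, and all of these lie in the stretch from *Vnn3* to *Enpp3*. The set also holds the gene with the highest WT level per kilobase of exon, *Aldh8a1*, an aldehyde dehydrogenase of the kynurenine pathway, at 85.0 CPM per kb. Its CPM ranged from 368 to 379 in FWT, 279 to 409 in FKO, 349 to 392 in MWT and 380 to 394 in MKO, and its changes of -0.11 ± 0.11 (SE) in females and 0.07 ± 0.12 in males did not pass. *Slc2a12*, a glucose transporter gene, had between 11 and 25 counts in all in each group and was not tested.

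The regulators of transcription, chromatin and splicing (*Zbtb2*, *Shprh*, *Plagl1*, *Hivep2*, *Cited2*, *Tbpl1*, *Med23*, *Bclaf1*, *Sf3b5* and *Heca*) had 1 call among 10, *Hivep2* in females, with log2 fold changes from -0.53 to 0.24 in females and -0.25 to 0.58 in males. *Heca*, the most abundant of them per kilobase (8.19 CPM per kb in WT), lay at 0.14 ± 0.10 (SE) in females and -0.14 ± 0.10 in males. None of the 10 kinases, phosphatases and scaffolds (*Lats1*, *Map3k5*, *Sgk1*, *Akap12*, *Akap7*, *Sash1*, *Epm2a*, *Phactr2*, *Plekhg1* and *Samd5*) was called, with changes from -0.28 to 0.20 in females and -0.25 to 0.40 in males. *Map3k5*, the stress kinase ASK1 and the most abundant of this set at 8.74 CPM per kb, was at -0.21 ± 0.10 (SE) in females and -0.22 ± 0.10 in males (edgeR adjusted p = 0.229 and 0.411). The Hippo kinase *Lats1* belongs to the same set.

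None of the 3 genes of immune and death signalling (*Tnfaip3*, *Ifngr1* and *Perp*) was called. *Perp*, a p53 target of cell junctions at 38.6 CPM per kb in WT, lay at -0.16 ± 0.11 (SE) in females and 0.23 ± 0.12 in males. None of the 7 cytoskeletal and membrane linkers (*Syne1*, *Utrn*, *Map7*, *Epb41l2*, *Katna1*, *Nhsl1* and *Abracl*) was called for genotype, with changes from -0.17 to 0.15 in females and -0.13 to 0.19 in males. *Katna1*, the catalytic subunit of the microtubule-severing enzyme katanin, was the most abundant at 8.58 CPM per kb. The 4 genes of vesicle traffic (*Stxbp5*, *Vta1*, *Rab32* and *Reps1*) were not called, with changes from -0.06 to 0.17 in females and -0.07 to 0.14 in males, and *Rab32*, a GTPase of lysosome-related organelles at 11.7 CPM per kb, was at -0.01 ± 0.11 (SE) and 0.14 ± 0.11.

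None of the 5 genes of translation, RNA and the nuclear pore (*Ltv1*, *Hbs1l*, *Adat2*, *Rmnd1* and *Nup43*) was called, with *Hbs1l*, a ribosome rescue factor, the most abundant at 13.5 CPM per kb. Of the pair *Pex3* and *Ahi1*, genes of the peroxisome and the cilium, *Pex3* was called as above. The last set, *Armt1*, *Ccdc170*, *Ginm1*, *Fbxo30*, *Ccdc28a*, *Hebp2* and *B430219N15Rik*, had 6 tested members and the single call of *B430219N15Rik*. The median WT level of the tested neighbours was 3.47 CPM per kb, and that of all tested genes 1.96.

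**Figure D5:**
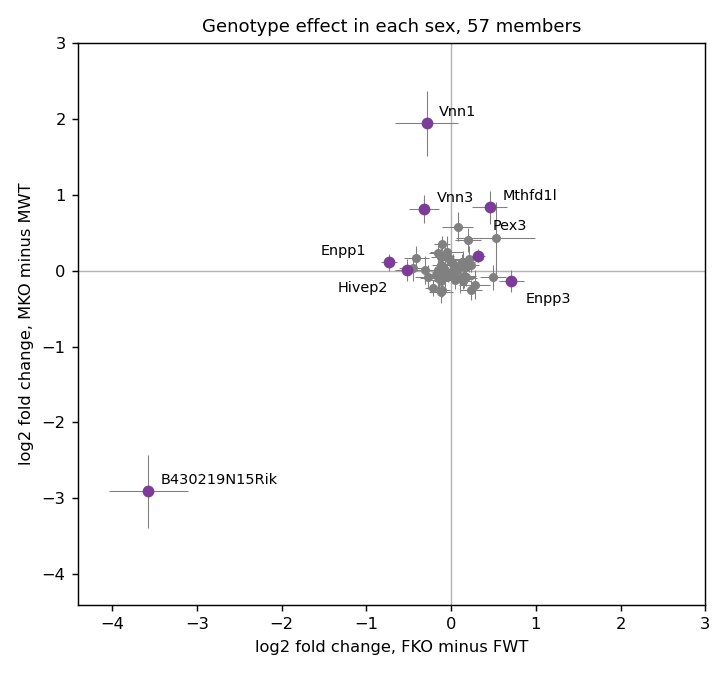
Log2 fold change between ESR1KO and WT in females (horizontal) against males (vertical) for 57 tested neighbours, with bars of 1 SE, and 8 genes named (*Moxd1* is left out). *B430219N15Rik* is the one point far from 0 on both axes (-3.58 and -2.91). Most of the others lie close to 0 on both.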

How the data were processed

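Liver RNA was depleted of ribosomal RNA and sequenced in paired ends. Per the labels and the study's methods, the authors trimmed reads (Trimmomatic 0.36), aligned them to GRCm38 with STAR, counted them per gene with HTSeq and deposited raw counts, 1 column per mouse; annotation release, strand setting and multimapping are not given in the sources used here. The counts were tested with edgeR 4.0.16 (R 4.3.3): filterByExpr on 4 groups left 17655 genes, scaled by TMM and fitted with 1 mean per group over all 15 mice (quasi-likelihood F test, Benjamini-Hochberg over all genes tested). SE is the log2 fold change divided by the square root of F, and 95% intervals span 1.96 SE. DESeq2 1.42.0, other scalings, filters, call rules, a replicate block and leaving out each mouse were the alternatives. Positions are from GENCODE M21, and functional sets were assigned by hand.

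Members, sets and markers were chosen with earlier results of these data known. Named genes were neighbours called for genotype or its interaction with sex or in both sex contrasts, the 8 nearest *Esr1*, untested members and the most abundant of each set per kilobase. *Cited2* and *Lats1* were named after their values were seen. No pair of libraries of a group agreed within sampling noise (lowest chi-square per gene between replicates 16.8).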

Additional observations from a re-analysis of the deposited data

Results flagged for a closer look

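Within the groups of 4 and 5 mice, single mice stood far from the rest for 3 neighbours. *Vnn1* in MKO replicate 3 was 96.1 CPM, and the other MKO mice had between 32.7 and 42.3. *Zbtb2* in FKO replicate 5 was 8.27 CPM against 5.85 to 6.45 in the other FKO mice, and in MKO replicate 1 it was 5.64 CPM against 6.92 to 7.11. *Moxd1* in MKO replicate 4 was 0.0133 CPM, a single count, where the other MKO mice had 0. Among the 50 groups of the 25 named genes examined, chance alone marks about 1 in 20.

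The genotype effect differed between females and males by a test of the interaction for *Enpp1* (edgeR adjusted p = 0.00363), *Vnn3* (0.0272) and *Enpp3* (0.0445). *Moxd1* passed it too (edgeR adjusted p = 0.0367), but its effect in females could not be measured from 0 and 4 counts.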

How the results depend on the processing

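No called difference of a named neighbour changed direction: of 590 values of 23 such results under the alternatives, 475 stayed past the threshold and 115 did not, and the differences of *B430219N15Rik*, of *Moxd1* in males and of *Enpp1* between sexes or in females kept their call whenever 1 mouse was left out. With 1 mouse left out, the median log2 fold change of the neighbours ranged from -0.062 to -0.021 in females and from -0.019 to 0.038 in males. In the order higher and lower in FKO, higher and lower in MKO, higher and lower in both sexes on average, interaction, WT sex difference and ESR1KO sex difference, counts were 2, 3, 2, 2, 2, 2, 4, 6 and 0. At an unadjusted p under 0.05 they were 5, 5, 8, 4, 7, 5, 12, 15 and 8. With both directions together, that was 17.2% of the neighbours in females and 20.7% in males, against 22.5% and 11.9% of all genes. It was 20.7% for the average and 20.7% for the interaction, against 19.4% and 14.3%. For the WT and ESR1KO sex differences it was 25.9% and 13.8%, against 17.3% and 17.5%. With a log2 fold change of at least 1 required, the counts that moved were 0, 1, 1, 0, 1, 2 and 3. With at least 1.5, the study's minimum for sex bias, they were 0, 1, 1, 0, 1, 1 and 2. The counts of lower in MKO and of the ESR1KO sex difference did not move.

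Higher in FKO were 1 without the filter, 1 with the compared groups alone and 1 without FKO replicates 1 and 4, a setting chosen after seeing the data. Higher in MKO were 4 by DESeq2, 4 with the compared groups alone and 1 with total counts. The ESR1KO sex difference was 1 by DESeq2 and 1 without the filter. Leaving out 1 mouse gave 0 to 3 higher and 2 to 3 lower in FKO, 0 to 3 and 2 to 2 in MKO, 0 to 3 and 1 to 3 on average, 1 to 5 interactions, and 3 (without MWT replicate 1) to 8 WT sex differences.

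Replicate numbers did not pair the mice: of 19 pairs with the same number, 1 correlated above 0.1 (range -0.195 to 0.140), and 1 mouse correlated best with its own number. With the replicate number as a block, counts were 1 higher and 5 lower in FKO, 0 higher in MKO, 0 higher on average and 2 interactions, and 16 of the 23 results stayed called. With 3 to 5 mice a group, most simulated 1.5-fold changes within 1 sex were missed, and the cause of lost calls was not tested.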
